A study of Mus musculus with 2 samples.

Results

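The microRNA genes of the Hox clusters were described in small RNA sequencing of mouse embryonic limb. They are Mir196a-1, Mir196a-2, Mir196b, Mir10a, Mir10b and Mir615, taken by symbol from the 1973 genes of the deposited tables, and all 6 were found. The 2 libraries form 1 group: limb tissue of B6NCrl mice at embryonic day 14.5, with no genotype or treatment named and inserts under 30 nucleotides. Per the labels, a sample held 4 limbs, the sexes were pooled, and both samples carried the same donor label and differed in collection day. Forelimb and hindlimb were therefore not separated, and replicate and collection day cannot be told apart. The labels call them biological replicates, but whether they came from separate embryos is not clear. The p-values between them set the reads of these libraries against counting noise and measure no spread between samples.

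Hox genes encode homeodomain transcription factors that give cells their position along the body axis and, for the HoxA and HoxD clusters in particular, along the limb. A few microRNA genes sit among them. A microRNA guides the silencing complex to mRNAs mainly through its seed, the stretch from base 2 to base 8, which pairs with the 3′ untranslated region (UTR) of the target. The miR-196 family is known for repressing Hox mRNAs, among them Hoxb8 in the hindlimb, and the miR-10 family for lying beside the group 4 Hox genes in animals from insects to mammals.

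The mature sequences are shown first, because they bear on which reads the tables could give to a gene. They were taken from RefSeq (GRCm38.p6), which held mature forms for all 6 genes, and are written 5′ to 3′ with the seed in capitals.
miR-196a-5p, from Mir196a-1 and Mir196a-2: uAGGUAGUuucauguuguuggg
miR-196b-5p, from Mir196b: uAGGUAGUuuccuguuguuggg
miR-10a-5p, from Mir10a: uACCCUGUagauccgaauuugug
miR-10b-5p, from Mir10b: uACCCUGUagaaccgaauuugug
miR-615-3p, from Mir615: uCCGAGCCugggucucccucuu
miR-615-5p, from Mir615: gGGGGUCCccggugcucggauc
The miR-196 forms share 1 seed and differ by the substitution A12C, from miR-196a to miR-196b, counted from the 5′ end. The miR-10 forms share another seed and differ by U12A, from miR-10a to miR-10b. Within each family the only difference is thus at base 12, outside the seed. Both 5p seeds belonged to no other mature mouse microRNA of the RefSeq table.

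Mir196a-1 and Mir196a-2 make the same 5p form. Their hairpins are shown with the longest stretch they share in capitals, 22 nucleotides that are the mature miR-196a-5p itself.
Mir196a-1: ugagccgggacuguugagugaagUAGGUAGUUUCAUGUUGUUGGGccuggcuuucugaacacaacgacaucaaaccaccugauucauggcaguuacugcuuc
Mir196a-2: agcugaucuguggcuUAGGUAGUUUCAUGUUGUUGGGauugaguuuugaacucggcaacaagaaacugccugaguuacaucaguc
The 3p forms of the copies differ and matched 1 gene of the tables each.
miR-196a-1-3p: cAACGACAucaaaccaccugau
miR-196a-2-3p: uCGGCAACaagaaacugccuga
A read of the full miR-196a-5p matches both copies, and the tables keep reads that align to several places in a tally row apart from the genes. The counts at Mir196a-1 and Mir196a-2 are therefore lower limits, and how much miR-196a-5p the limb held was not measured. No other member had this limit within the tables: the longest stretch shared with another gene was 12 nucleotides for Mir196b, 15 for Mir10a and Mir10b, which share it with each other, and 14 for Mir615.

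The members lie in all 4 Hox clusters, and no other gene of the tables with a position in GENCODE M21 lay inside a cluster or within 10 kb of its ends. All 6 are on the strand of the Hox genes around them. The 3 Mir196 genes lie upstream of the group 9 genes. Mir196b (ENSMUSG00000065443.1, GRCm38 chr6:52230081-52230165, minus strand) lies in HoxA, between the coding parts of Hoxa10 and Hoxa9 and 3.98 kb before the coding start of Hoxa9. It overlaps an exon of 2 annotated Hoxa9 transcripts and an intron of 1. Mir196a-1 (ENSMUSG00000065546.1, chr11:96265164-96265265, plus strand) lies in HoxB, 6.28 kb before the coding start of Hoxb9, in no annotated transcript of its strand. Mir196a-2 (ENSMUSG00000065488.1, chr15:102973350-102973434, plus strand) lies in HoxC, between Hoxc10 and Hoxc9, 8.22 kb before the coding start of Hoxc9 and in an intron of a long Hoxc5 transcript.

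Both Mir10 genes lie just upstream of a group 4 gene. Mir10a (ENSMUSG00000065519.1, chr11:96317165-96317274, plus strand) lies 1.5 kb before the coding start of Hoxb4, outside annotated transcripts. Mir10b (ENSMUSG00000065500.2, chr2:74726070-74726137, plus strand) lies 1.14 kb before the coding start of Hoxd4, in an intron of 3 transcripts of Hoxd3 and Hoxd4. Mir615 (ENSMUSG00000076010.1, chr15:103014910-103015001, plus strand) lies in HoxC, in an intron of Hoxc5 within its coding span. The map of the clusters shows that the HoxB and HoxC clusters hold 2 of the genes each and the HoxA and HoxD clusters 1 each.

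**Figure D1:**
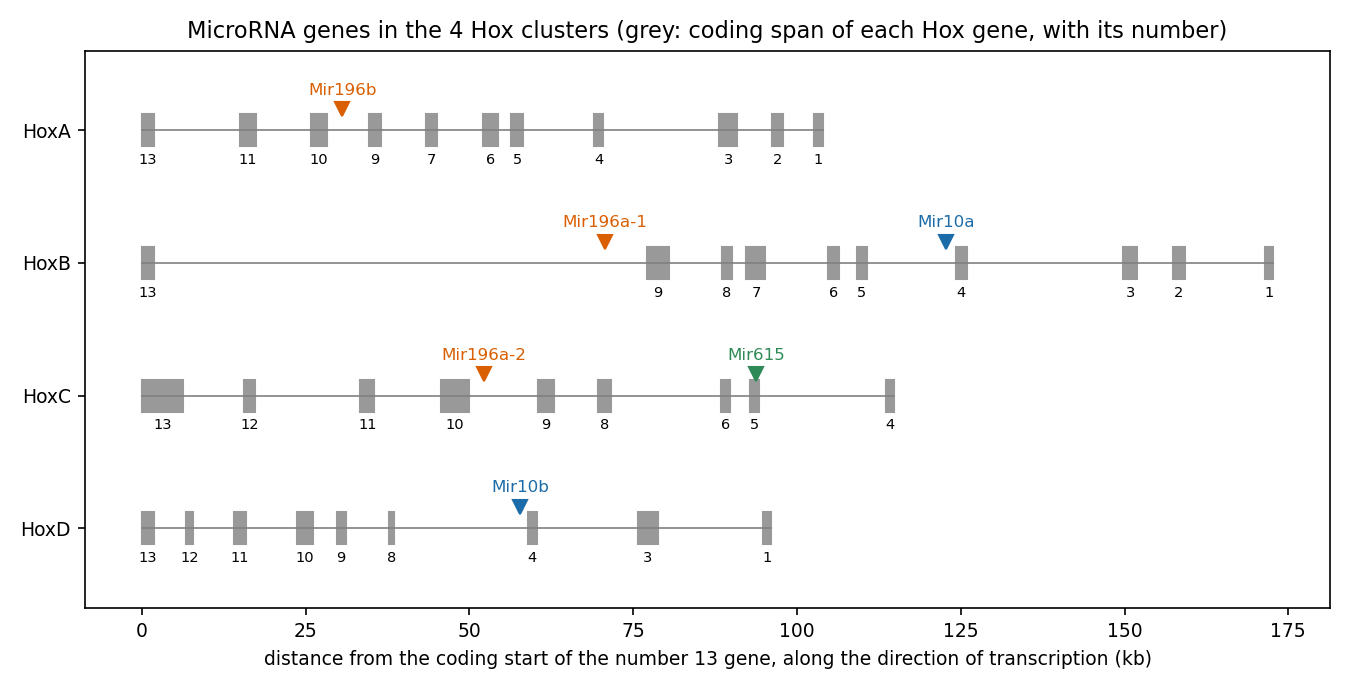
Positions of the 6 microRNA genes (triangles; orange Mir196, blue Mir10, green Mir615) in the 4 Hox clusters, in kb from the coding start of the number 13 gene along the direction of transcription; grey boxes are coding spans of the Hox genes with their numbers. The Mir196 genes lie upstream of the group 9 genes, the Mir10 genes upstream of the group 4 genes and Mir615 inside Hoxc5.

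Levels are counts on the gene's own strand per 1000000 own-strand counts of the library (CPM), with 4608816 counts in replicate 1 and 4144385 in replicate 2. The limit of detection, 3 counts, was 0.651 and 0.724 CPM, and it covers counting error only, since the tables record no molecular identifiers. In whole tissue, fewer cells of a type and less RNA per cell cannot be told apart. The labelled tissue was checked with markers of its parts. The cartilage microRNAs Mir140 and Mir455 summed to 61361 ± 2547 CPM (SD, n = 2), and markers of epidermis, endothelium, skeletal muscle and blood were detected as well. Of the 3 skeletal muscle genes, Mir1a-1 was not detected, with 1 and 2 counts, and its matches to other copies were not examined. Of 5 brain genes, 4 had no count and Mir9-3 had 2 counts in replicate 1 alone, but this is no check of the tissue: all 5 are copies of Mir124a or Mir9 that share a mature form with other copies, whose full-length reads are given to no gene. The liver microRNA Mir122 was at 6.29 and 13.5 CPM. The heart microRNA Mir208a was at 2.39 and 2.17 CPM and the pancreas microRNA Mir217 at 1.95 and 2.41 CPM. Mir208a and Mir217 lay above the limit of 3 counts but did not reach 10 counts in both libraries.

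Mir196b, the HoxA member, gave by far the most counts of the 6. It had 228218 counts in replicate 1 and 225590 in replicate 2, or 49518 and 54433 CPM. On average this was 5.20% of the own-strand counts given to genes (51975 ± 3475 CPM, n = 2). Reads with several alignments are outside that total. It ranked 5 in replicate 1 and 4 in replicate 2 among all genes by these counts. Its counts came to 75.7% and 79.8% of the sum of the 6 genes. These shares are upper limits, because the counts of the Mir196a genes in that sum are lower limits.

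The Mir196a copies gave far fewer counts. Mir196a-2 in HoxC had 1926 and 1582 counts, or 418 and 382 CPM (mean 399.8 ± 25.6 CPM). Mir196a-1 in HoxB had 38 and 33 counts, or 8.25 and 7.96 CPM (mean 8.10 ± 0.200 CPM), with exact 95% binomial intervals of 5.83 to 11.3 and 5.48 to 11.2 CPM. Reads placed at Mir196a-2 were thus 50.7 and 47.9 times those at Mir196a-1. Full-length reads of the shared 5p form match both copies and are not among them. The ratio of the copies is therefore one of reads that match 1 copy alone, and it does not compare the 5p form. The counts at Mir196b were 116 times those at both Mir196a genes together in replicate 1 and 140 times in replicate 2. This ratio compares reads with 1 alignment only: for each read at Mir196a-2 the library held 1488 reads of several alignments in replicate 1 and 1729 in replicate 2, whose genes are not recorded. It is not a ratio of mature miR-196b to miR-196a.

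The Mir10 genes, whose 5p forms differ by a base and matched 1 gene of the tables each, were compared by their counts. A hairpin is counted as a whole, so their ratio is one of genes and not of the 5p forms alone. Mir10b in HoxD had 51373 and 40463 counts, or 11147 and 9763 CPM (mean 10455 ± 978 CPM). Mir10a in HoxB had 15786 and 11185 counts, or 3425 and 2699 CPM (mean 3062 ± 514 CPM). Mir10b was higher in both libraries, 3.25 times Mir10a in replicate 1 and 3.62 times in replicate 2 (3.44 ± 0.257, n = 2). Per length of hairpin, which is 68 nucleotides for Mir10b and 110 for Mir10a, the ratio was 5.56 ± 0.416. Mature microRNAs are read over their whole length, so the other values are not divided by length; the order of the 6 genes was the same per 100 nucleotides of hairpin in both libraries.

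Mir615, the microRNA of the Hoxc5 intron, had 4141 and 3718 counts, or 898 and 897 CPM (mean 897.8 ± 0.974 CPM). The SD depends on the scaling: it was 28.3 CPM with TMM factors and 32.6 CPM with DESeq2 size factors, which scale the libraries by their shared genes rather than by their totals. The tables count a hairpin as a whole, so which of its arms gave these reads was not measured. Mir615 stood 2.15 and 2.35 times above Mir196a-2, which lies 41.5 kb upstream in the same cluster and whose count is a lower limit.

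By family, the Mir196 genes summed to 49944 and 54822 CPM and the Mir10 genes to 14572 and 12462 CPM, a ratio of 3.43 in replicate 1 and 4.40 in replicate 2. The Mir196a genes gave 426 and 390 CPM of the Mir196 sums, a lower limit, so the sums and the ratio are lower limits too and the Mir196a genes could not be ordered against the Mir10 genes. By cluster, HoxA gave 51975 ± 3475 CPM, HoxD 10455 ± 978 CPM, HoxB 3070 ± 514 CPM and HoxC 1298 ± 26.6 CPM (n = 2 each), where HoxB and HoxC hold a Mir196a gene each and are lower limits. Genes at the like position did not have like counts: the 3 genes upstream of group 9 spanned from 8.10 to 51975 CPM on average. The lower values are lower limits, so how unlike their levels are is not resolved. The genes beside group 4 lay below Mir196b. The plot of levels by replicate shows the order of counts as Mir196b, Mir10b, Mir10a, Mir615, Mir196a-2 and Mir196a-1 in both libraries. Each gene's values lay apart from those of the next, but the places of the Mir196a genes rest on lower limits.

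**Figure D2:**
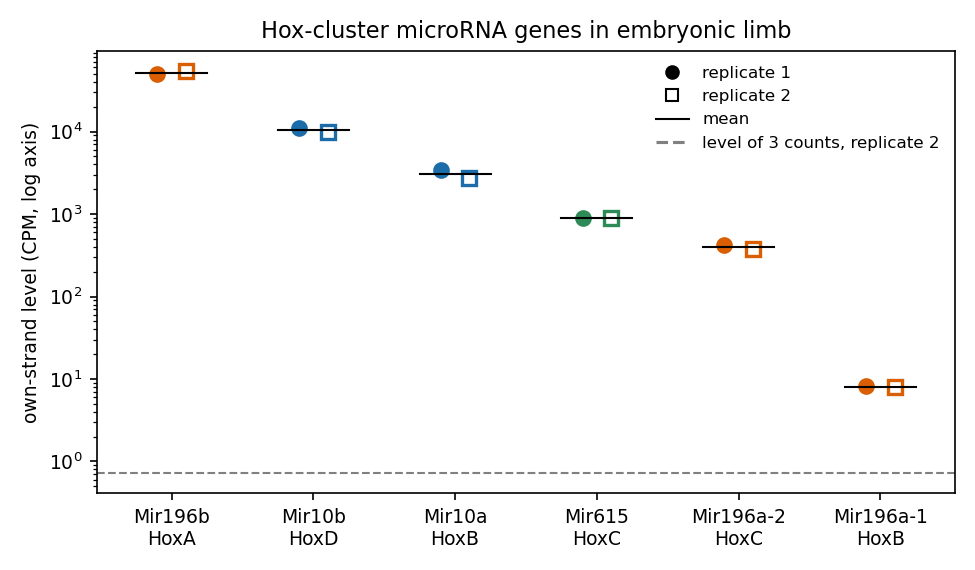
Own-strand level (CPM, log axis) of the 6 genes in replicate 1 (filled circles) and replicate 2 (open squares), with the mean as a black line and the level of 3 counts as a dashed line; the Hox cluster is under each name. The genes span from 8.10 CPM for Mir196a-1, a lower limit, to 51975 CPM for Mir196b on average, and the replicates of neighbouring genes do not overlap.

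Set among all genes by reads with 1 alignment, the members lay at mean ranks 4, 23, 61, 102, 135 and 289. Genes that share a mature form with other copies, as the Mir196a genes do, are ranked on lower limits. These ranks are therefore not places among the mature microRNAs of the limb. All 6 had at least 10 counts in both libraries, as had 333 of the 1973 genes. For each member the gene next above and next below in mean level was compared, 12 pairs in all, and only in 2 did both replicates of the higher gene exceed both of the lower. Mir10b lay above Mir143, a smooth muscle microRNA (8801 and 7935 CPM). Mir615 lay below Mir25, of the Mir106b cluster (945 and 957 CPM). In the other 10 pairs the values overlapped across the libraries, so the rank is not resolved to 1 place. Mir196b overlapped Mir322, a microRNA of the miR-15/16 seed family (52530 and 54899 CPM), but lay below it within each library. It could not be ordered against Mir99a (50365 and 49949 CPM), as the order changed between the libraries. Mir10b overlapped the imprinted Mir487b (11739 and 9253 CPM). Mir10a overlapped Mir149 (2950 and 3266 CPM) and Mir532 (2910 and 2631 CPM), but lay above Mir532 within each library. Mir615 overlapped the sensory microRNA Mir96 (899 and 890 CPM). Mir196a-2 overlapped Mir421 (356 and 448 CPM) and Mir450b (416 and 356 CPM), but lay above Mir450b within each library, narrowly in replicate 1. Mir196a-1 overlapped Mir1188 (8.03 and 8.45 CPM) and Mir7083 (8.68 and 7.48 CPM).

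**Figure D3:**
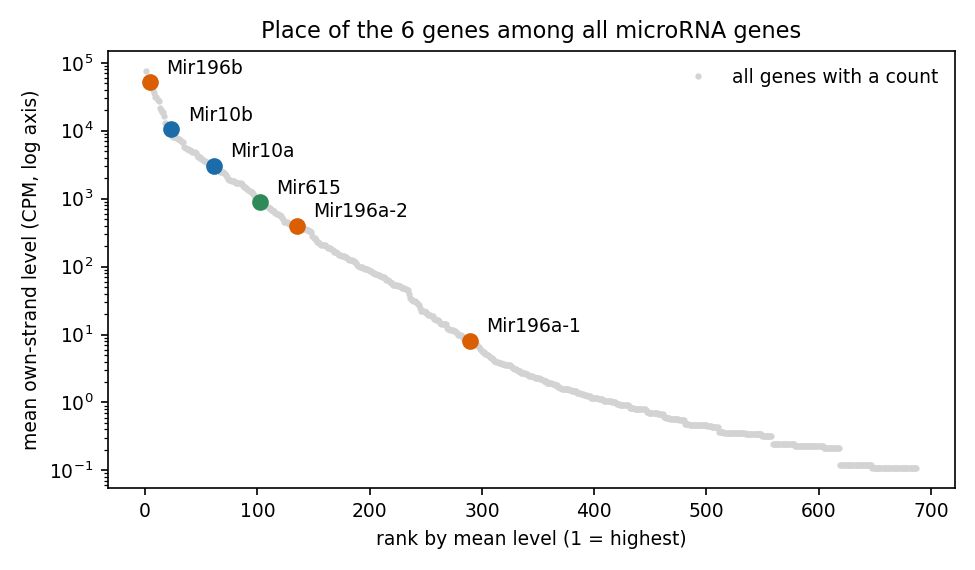
Mean own-strand level (CPM, log axis) against rank for all genes with a count (grey), with the 6 genes marked (orange Mir196, blue Mir10, green Mir615). Mir196b lies at rank 4 and Mir196a-1, which has the same 5p seed and whose count is a lower limit, at rank 289.

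The 2 libraries were then compared, to see how far the members' levels held. Mir10a differed most: it was lower in replicate 2 by a factor of 1.27, with a log2 ratio of -0.34 (95% counting interval -0.38 to -0.31). Mir10b was lower as well, with a log2 ratio of -0.19 (-0.21 to -0.17), and so was Mir196a-2 with -0.13 (-0.23 to -0.03). Mir196b was higher in replicate 2, with a log2 ratio of 0.14 (0.13 to 0.14). Mir615 was at -0.0022 (-0.07 to 0.06) and Mir196a-1 at -0.05 (-0.77 to 0.66), where 71 counts in all leave room for a difference in either direction.

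By a two-sided exact binomial test with Benjamini-Hochberg adjustment over all genes tested, 4 of the 6 genes passed an adjusted p of 0.05: Mir196b higher in replicate 2, and Mir10a, Mir10b and Mir196a-2 lower. Of all 407 genes tested, 35.6% passed, 19.9% higher and 15.7% lower, and of the 119 genes that reached 5000 counts over both libraries 77.3% passed. Of the 4 members of that depth 3 passed, all but Mir615, a share near that of the other genes of like depth. The share of calls that were higher in replicate 2 was 55.9%; it was 34.4% with TMM factors and 30.4% with DESeq2 size factors, and the members' directions were the same under both. These factors lowered each log2 ratio by the same amount, so the sizes moved: Mir196b went from 0.14 to 0.07 with TMM and 0.06 with DESeq2 factors, outside its counting interval, Mir10a to -0.41 and -0.42, and Mir10b to -0.25 and -0.26. Mir196a-2 went to -0.19 and -0.20, Mir615 to -0.06 and -0.07, and Mir196a-1 to -0.11 and -0.12. The adjusted p was 0.0239 for Mir196a-2 in the exact test, 0.973 for Mir196a-1 and 1 for Mir615. The test sets the reads of these libraries against counting noise and compares the libraries, not conditions.

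The members' differences were set against those of the other genes, with scaling to the total count. Among the 275 genes that reached 100 counts over both libraries the median absolute log2 ratio was 0.11, and the middle of the distribution ran from -0.11 to 0.12 (quartiles). Of these genes 12% had a larger absolute log2 ratio than Mir10a, 30.9% than Mir10b, 42.2% than Mir196b, 44.4% than Mir196a-2 and 98.9% than Mir615. Mir10a was thus among the larger differences, not far below the 90th percentile of 0.37. Genes with few counts vary more from counting noise, and these shares were not computed for genes of like depth. Mir196b and the Mir10 genes differed in sign: Mir196b was 4.44 times Mir10b in replicate 1 and 5.58 times in replicate 2, a ratio that no scaling of the libraries can change. Markers of other tissue parts differed between the libraries too. The skeletal muscle microRNA Mir206 was at 6041 and 4411 CPM and the epidermal Mir203 at 40413 and 31563 CPM, both lower in replicate 2. The cartilage Mir140 was at 55579 and 58999 CPM, higher by a log2 ratio of 0.09, and the endothelial Mir126a was at 0.02. TMM and DESeq2 factors lower every log2 ratio, so the rise of Mir140 is smaller with them. Of the blood genes, Mir451a and Mir144 were at -0.39 and -0.43 and Mir223 at 0.06. The 3 genes of the skeletal muscle list (Mir206, Mir133b and Mir1a-1) summed to 6196 and 4521 CPM, the 2 of the cartilage list to 59560 and 63162 CPM and the 2 of the epidermis list to 53900.0 and 43852 CPM. Their part in the differences of the members was not tested.

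**Figure D4:**
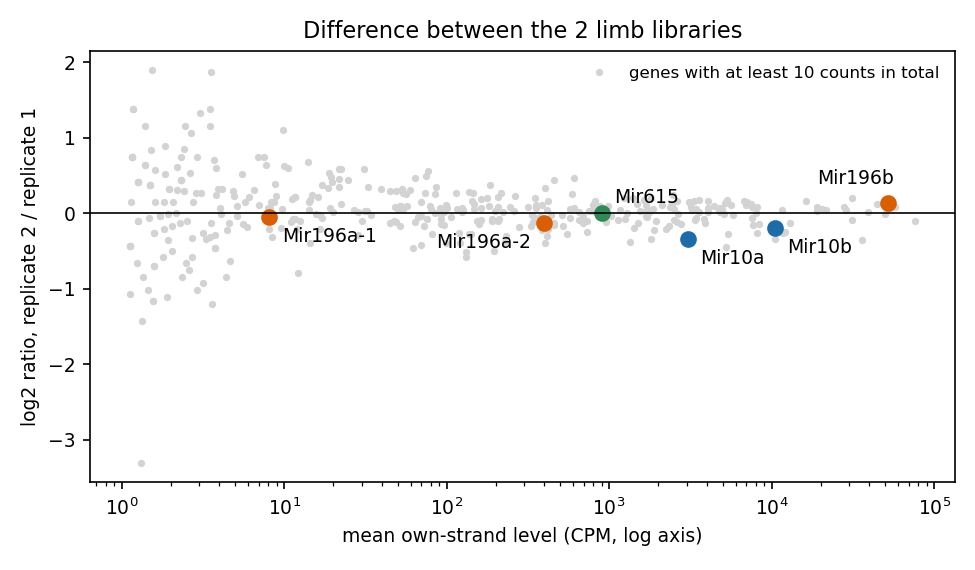
Log2 ratio of replicate 2 over replicate 1 against mean level (CPM, log axis) for the 407 genes that reached 10 counts over both libraries (grey), with the 6 genes marked (orange Mir196, blue Mir10, green Mir615). The Mir10 genes lie below 0 at -0.34 and -0.19, Mir196b above it at 0.14 and Mir615 near 0, at -0.0022.

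None of the members gave reads of the opposite strand: the count there was 0 in both libraries for all 6 genes, a count of 0 that allows levels of up to 0.651 and 0.724 CPM in replicates 1 and 2.

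The seeds were then set against the Hox mRNAs. The 3′ UTRs of GENCODE M21 (the longest per gene among basic protein-coding transcripts) were searched on the transcript strand for the exact reverse complement of seed bases 2 to 8. The match to the miR-196 seed, ACTACCT, was in 9 of 39 Hox genes (23.1%), with 13 sites, against 6.09% of all 20981 genes. Most sites per gene were in Hoxa7, which held 4, and in Hoxc8, which held 2. The median UTR was 966 nucleotides long for the Hox genes and 954 for all, and the density was 0.340 against 0.0456 sites per kb. The match to the miR-10 seed, ACAGGGT, was in 4 of 39 Hox genes (10.3% against 12.5% of all genes). The matches to miR-615-3p, GGCTCGG, and miR-615-5p, GGACCCC, were in 1 and 4 Hox genes (2.56% against 2.28%, and 10.3% against 6.55%). These counts describe letters in the reference, and no mRNA was measured in the data.

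Hoxb8, the known target, is not among the 9 genes, and its site is shown for that reason. Over the whole of miR-196a-5p and without gaps, the best paired Hox site was in the Hoxb8 3′ UTR, at chr11:96284888-96284909 of the plus strand (GRCm38), with the part facing the seed in capitals.
Hoxb8 site: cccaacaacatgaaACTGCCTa
It pairs with miR-196a-5p at 22 of 22 bases, 21 by Watson-Crick pairs and 1 by a G:U pair. The G:U pair lies in the seed: the site differs from the exact match by A4G, counted from the 5′ end of the 7 letters. With miR-196b-5p, whose base 12 differs, the same site pairs at 21 of 22 bases. Among 20875 genes with a UTR of at least this length, Hoxb8 and Rps6ka2 had a site paired with miR-196a-5p at all 22 bases. The median of the best site was 17 bases, with G:U pairs counted for every gene. With miR-196b-5p, 15 genes, Hoxb8 among them, had a site paired at 21 bases. Mir196b, which gave the most reads of the 6 genes, thus encodes the form with 1 pair fewer at the Hoxb8 site. The fully paired form is the one whose full-length reads were not given to a gene.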

How the data were processed

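Small RNA libraries of 2 limb samples were analysed. The deposited values are unnormalized counts per gene; reads were aligned to mm10 and counted on GENCODE M4, per the authors' read-me files. Aligner and counter: not given in the sources used here. A table holds 3 count columns (either, own and opposite strand, judged from the values) and 4 tally rows, kept out of totals. Reads with several alignments, given to no gene, were 31.8% and 32.6% of all reads, unmapped reads 12.8% and 13.7%, and reads on no gene's own strand 4.19% and 4.31%.

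Genes were named from GENCODE M21 (same build) by identifier without version: 1894 of 1973 matched. Counts were scaled to CPM by the own-strand sum. The libraries were compared by a two-sided exact binomial test at a minimum of 10 counts in total, with Benjamini-Hochberg adjustment; edgeR's quasi-likelihood test has no residual degrees of freedom here. A chi-square of 53.7 per degree of freedom showed that the libraries are not copies of each other. Scripts were tested on simulated data with counting noise only, so that check does not cover the further differences between these libraries. Tools were scipy 1.17.1, pandas 2.3.3, numpy 2.4.6 and matplotlib 3.10.9 in Python 3.11.15, and edgeR 4.0.16 (TMM) and DESeq2 1.42.0 (size factors) in R 4.3.3.

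Named genes were the members, the gene next above and below each in mean level, Mir99a, Mir99b, Mir100 and the tissue markers. Rps6ka2, the class of 5000 counts and the values per hairpin length were chosen after seeing the data. The members and lists were chosen with earlier results of these data known.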

Additional observations from a re-analysis of the deposited data

How the results depend on the processing

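With multiply aligned reads counted in the total, the levels were 4.94 CPM for Mir196a-1, 243.8 for Mir196a-2, 31661 for Mir196b, 1869 for Mir10a, 6377 for Mir10b and 547 for Mir615, with sums of 31910.0 (Mir196), 8246 (Mir10) and 40703 (all 6), since the total is larger by construction. Scaled to either-strand counts, Mir196a-1 was at 7.85 CPM, Mir615 at 869.6 and the 6 genes at 64700.2, a larger total again. Per hairpin length, the ratio of Mir10b to Mir10a was 5.56, because the Mir10b hairpin is shorter. With TMM and with DESeq2 factors, all 17 levels, log2 ratios and counts of calls recomputed kept their call. Mean levels stayed within the replicate SD, log2 ratios kept their direction and side of the threshold, and counts of calls stayed within 1.5 times. These factors move the 2 libraries in opposite directions, so a mean level could hardly change and its check shows little. In size the log2 ratio of Mir196b moved by over 1.5 times, from 0.14 to 0.07 and 0.06, as did those of Mir615 and Mir196a-1 and, with DESeq2 factors, Mir196a-2. Over all settings the 145 genes that differed became 131 to 155. At a minimum of 100 counts Mir196a-1 was not tested. Leaving out a replicate gives the other's value as printed for each gene, family and ratio, with no test. No paired analysis was possible because there is 1 group. With 2 libraries, an SD rests on 1 difference.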

Other observations

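The miR-10 family has relatives outside the Hox clusters, Mir99a, Mir99b and Mir100, whose mature 5p forms resemble it. They are shown 5′ to 3′ with the seed in capitals, to be read against miR-10a-5p and miR-10b-5p above.
miR-99a-5p: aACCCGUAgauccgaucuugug
miR-99b-5p: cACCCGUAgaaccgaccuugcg
miR-100-5p: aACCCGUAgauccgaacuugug
The seeds differ between the groups, ACCCUGU in miR-10 and ACCCGUA in the relatives. As its longest run in common, miR-10a-5p shares 11 bases in a row with miR-100-5p and 10 with miR-99a-5p but 5 with miR-99b-5p, while miR-10b-5p shares 10 with miR-99b-5p and 5 with each of the others. In the limb all 3 relatives were detected, Mir99a at 50157 ± 294 CPM (SD, n = 2), Mir99b at 16252 ± 1314 CPM and Mir100 at 11547 ± 264 CPM. Together they gave 77048 CPM in replicate 1 and 78864 CPM in replicate 2, above the 14572 and 12462 CPM of the Mir10 genes in both libraries.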
